A study of Mus musculus with 20 samples.

Results

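Keratinocytes of Cyp11b1 conditional knockout mice given tamoxifen by injection were compared with those of the same genotype given tamoxifen on the skin. The comparison took the 5 injected knockout mice (columns cKO_systemic 2, 4, 5, 6 and 7 of the table of counts) and the 5 topically treated knockout mice (cKO_local 2, 3, 4, 5 and 7), 10 of the 20 libraries of the series, chosen by name and not by any measured value. The other 10 libraries came from Cre-negative littermates given tamoxifen by the same 2 routes, 5 mice a route (fl_ctrl_systemic and fl_ctrl_local). All knockouts (cKO) joined Cyp11b1 L2/L2, the floxed alleles, with K14-CreERTam, a tamoxifen-activated Cre driven by the keratin 14 promoter, which is active in basal keratinocytes and in other epithelia with keratin 14. The controls were Cyp11b1 L2/L2. Every mouse, controls included, received tamoxifen on 5 days, and cells were taken on day 6 from ear and dorsal skin and sorted as keratinocytes, 2 M cells a sample. Each library came from 1 mouse, and ages are not given in the sources used here. The study set the routes side by side to ask how a glucocorticoid deficiency induced through the body differs from one induced at the treated skin.

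The routes differed in more than where the drug entered. Injected mice received 100 µl of 10 mg/ml tamoxifen in oil and ethanol a day. Topical mice had the back hair shaved dry and received tamoxifen in ethanol, 20 µl on the ear and 100 µl on the back. The topical concentration is not given in the sources used here. Route, dose, solvent and shaving therefore cannot be told apart in any value below. The word route is used for all of them.

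Cyp11b1 encodes the mitochondrial 11-beta-hydroxylase that makes corticosterone, the main glucocorticoid of mice, from deoxycorticosterone. Keratinocytes carry the glucocorticoid receptor and the enzymes of steroid synthesis, and glucocorticoids act on epidermal differentiation and on inflammation in skin. Epidermis is renewed from a basal layer: cells leaving it switch keratins, then make the proteins and lipids of the cornified layer, whereas wounded or inflamed epidermis switches to keratins 6 and 16 and to small proline-rich proteins. Lysosomes and melanosome-like organelles, which recur in the results, are controlled in part by the MiT/TFE transcription factors, which bind CACGTG and CATGTG boxes.

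The 10 cKO libraries held 11.6 to 50.1 M counts and 14536 to 16695 genes with at least 1 count, and over the 20 pairs within a group the correlation across genes of log2 CPM was 0.948 to 0.986. CPM is counts per M counts of the library, here scaled with TMM factors for single genes. Cyp11b1 itself had 7 reads in 2 topical libraries and 4 reads in 1 injected library, a mean log2 difference of -0.039 (exact two-sided permutation p 0.722), so that its loss could not be read at this depth. Judged by Y-linked transcripts (over 5 CPM), male mice made up 2 of 5 in each group. The mitochondrial share of counts was 2.67% to 7.49% in topical and 2.45% to 6.05% in injected libraries (exact two-sided permutation p 0.817). A single library stood apart: injected mouse 2 had 37287 CPM of satellite-like predicted transcripts, against 1.10 to 42.5 CPM in the other 9. Without it, 1055 genes were called in the comparison of routes, of which 924 were shared with the 1145 called with it. Nothing in the sources says that mice of 1 group were from separate litters or cages, so the p-values measure the spread between these mice.

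Of 12424 genes tested, 1145 (9.22%) differed between routes at an adjusted p under 0.05 (edgeR quasi-likelihood test, Benjamini-Hochberg over all genes tested). Of these, 645 (5.19% of genes tested) were higher and 500 (4.02%) lower after injection. Changes of at least 2-fold, a log2 fold change of 1, made up 301 of the higher and 187 of the lower genes, and 66 and 34 reached a log2 fold change of 2. The 5 libraries of one route lay wholly apart from those of the other for 918 genes, 7.39% of those tested (4.07% with injection above, 3.32% below), and for 401 of the higher and 293 of the lower called genes. The median log2 fold change over all genes tested was -0.013. The largest called rises belonged to 9 satellite-like predicted genes that were high in injected mouse 2 only, and they are not described further. The number called fell to 746 without topical mouse 5 and rose to 1218 at most without any other single cKO library. Below, a positive log2 fold change means higher after injection, a gene is said to have risen or fallen after injection only where it was called by this test, and p-values printed for genes are adjusted p-values of the same test.

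**Figure D1:**
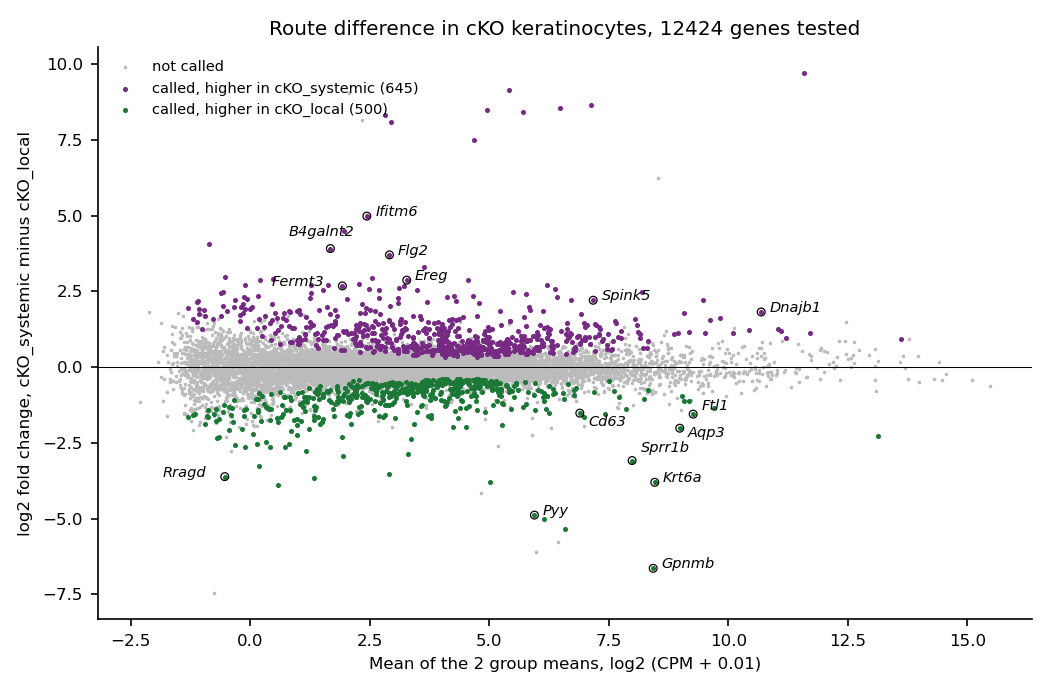
Log2 fold change of each gene (injected minus topical cKO, vertical axis) against the mean of its 2 group means (log2 CPM, horizontal axis), for 12424 genes tested, with called genes coloured and some described genes named. Gpnmb lies lowest of the 500 genes called lower after injection, and 645 genes called higher lie above 0.

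The clearest fall after injection was in Gpnmb, which encodes a glycoprotein of lysosomes and melanosomes and is known as a target of MiT/TFE factors. The promoters of 5 genes are printed here because the genes lead groups described below: Gpnmb among lysosomal genes, Klf15 among glucocorticoid targets, Ftl1 among antioxidant genes, Sprr1b among wound genes and Flg2 among cornified envelope genes. Each runs from 250 bases before the first transcribed base (counted as +1) to 30 bases from it, from RefSeq on GRCm38.p6, written on the gene's own strand. Capitals mark matches, on either strand, to the motifs CACGTG and CATGTG (MiT/TFE boxes), TGANTCA (AP-1), TGACNNNGC (antioxidant response core), ACANNNTGT (glucocorticoid response core) and TCACNCCAC (sterol response).
Gpnmb, chr6:49036268-49036547, plus strand: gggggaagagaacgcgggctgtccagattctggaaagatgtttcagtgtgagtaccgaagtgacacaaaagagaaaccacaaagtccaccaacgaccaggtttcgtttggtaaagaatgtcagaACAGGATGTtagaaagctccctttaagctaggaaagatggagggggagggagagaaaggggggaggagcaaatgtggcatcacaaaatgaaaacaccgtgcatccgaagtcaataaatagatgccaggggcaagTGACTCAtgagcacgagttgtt
Klf15, chr6:90462326-90462605, plus strand: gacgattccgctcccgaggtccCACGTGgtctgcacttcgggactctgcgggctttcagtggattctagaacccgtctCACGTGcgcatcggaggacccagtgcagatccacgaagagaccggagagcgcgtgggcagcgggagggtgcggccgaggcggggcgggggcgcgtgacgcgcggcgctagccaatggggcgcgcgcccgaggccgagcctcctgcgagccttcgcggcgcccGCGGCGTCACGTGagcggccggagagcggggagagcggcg
Ftl1, chr7:45459857-45460136, minus strand: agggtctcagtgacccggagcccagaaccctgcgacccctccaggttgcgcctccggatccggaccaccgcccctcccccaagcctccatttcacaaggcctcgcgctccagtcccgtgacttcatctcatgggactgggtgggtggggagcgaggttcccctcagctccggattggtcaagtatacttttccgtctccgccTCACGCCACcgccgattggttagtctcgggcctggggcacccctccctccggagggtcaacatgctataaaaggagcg
Sprr1b, chr3:92438750-92439029, minus strand: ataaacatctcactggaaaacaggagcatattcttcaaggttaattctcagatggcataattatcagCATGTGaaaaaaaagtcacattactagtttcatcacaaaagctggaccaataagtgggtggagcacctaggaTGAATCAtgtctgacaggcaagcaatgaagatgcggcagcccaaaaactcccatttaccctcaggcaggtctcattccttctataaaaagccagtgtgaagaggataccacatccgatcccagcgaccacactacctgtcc
Flg2, chr3:93197023-93197302, plus strand: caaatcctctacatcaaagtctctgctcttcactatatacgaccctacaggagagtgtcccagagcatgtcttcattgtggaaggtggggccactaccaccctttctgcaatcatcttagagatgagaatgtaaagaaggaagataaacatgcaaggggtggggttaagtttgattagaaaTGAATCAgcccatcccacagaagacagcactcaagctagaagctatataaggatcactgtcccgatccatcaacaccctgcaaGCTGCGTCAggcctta

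In these windows Gpnmb held TGANTCA at +9 and ACANNNTGT at -126, and no MiT/TFE box. Klf15 held CACGTG at -228, -172 and -3, the last overlapped by TGACNNNGC on the minus strand at -10. Ftl1 held TCACNCCAC at -48, Sprr1b held CATGTG at -183 and TGANTCA at -111, and Flg2 held TGANTCA at -69 with TGACNNNGC on the minus strand at +15. Over windows of the same length, CACGTG was in 9.66% of the promoters of genes tested, 13.6% of those of genes lower after injection and 8.67% of those of higher genes. TGANTCA was in 5.06% of promoters of genes tested, 6.20% of lower and 6.503% of higher genes. TGACNNNGC stood at 13.2%, 12.4% and 12.6%, ACANNNTGT at 3.67%, 4.80% and 4.77%, TCACNCCAC at 1.09%, 1.20% and 1.73%, and CATGTG at 7.88%, 9.80% and 8.38%, in the same order of tested, lower and higher genes. A match is a run of letters and not a site shown to be bound.

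Gpnmb (ENSMUSG00000029816, chr6:49036546-49070929, GRCm38, the gene's span in GENCODE) was at 890.3, 390.2, 835, 645 and 645 CPM in topical mice 2, 3, 4, 5 and 7, and at 5.11, 4.69, 5.10, 11.5 and 7.88 CPM in injected mice 2, 4, 5, 6 and 7. Every topical library lay far above every injected one (edgeR quasi-likelihood, log2 fold change -6.64, SE 0.38, adjusted p 2.75e-10). In the bulk of a sorted sample, fewer cells that make a transcript and less transcript in each cell cannot be told apart, here or for any gene below. Cd63, a tetraspanin of late endosomes and lysosomes, was at 199, 128, 210.1, 141 and 203 CPM topically and 57.3, 76.4, 56.1, 66.8 and 50.6 CPM after injection, with no overlap (log2 fold change -1.52, SE 0.20, adjusted p 7.00e-05). Npc2, which carries cholesterol out of the lysosome, ranged from 79.7 to 119 CPM topically and 42.6 to 71.5 CPM after injection (edgeR quasi-likelihood, log2 fold change -0.88, adjusted p 0.00461). Laptm4b, a lysosomal membrane protein, went the other way: it was at 36.7 to 45.6 CPM topically and 48.1 to 78.4 CPM after injection and rose (log2 fold change 0.73, adjusted p 0.00249).

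Of 18 lysosomal membrane genes tested, 3 fell (Gpnmb, Cd63 and Npc2) and 1 rose (Laptm4b), with a median log2 fold change of -0.11. Of 39 lysosomal enzymes and cofactors, 7 fell and 2 rose, with a median of -0.21, against -0.013 over all genes. Among those that fell were the cathepsin Ctsz, the progranulin gene Grn, Gla, Gusb, Gaa and Man2b1. Ctsz ranged from 5.31 to 8.71 CPM topically and 2.81 to 3.91 CPM after injection (log2 fold change -0.98, adjusted p 0.00113), and Grn from 122 to 166 and 72.7 to 101 CPM (log2 fold change -0.70, adjusted p 0.00554). Both sets of libraries lay apart for these 2 genes. The beta-galactosidase gene Glb1 and the arylsulfatase gene Arsa rose (log2 fold change 0.70, adjusted p 0.00442 and log2 fold change 0.94, adjusted p 0.0116), with overlapping libraries for both. Fewer enzymes were lower without injected mouse 7 (3) or without topical mouse 4 or 5 (4 each), 4 enzymes were higher without injected mouse 2, and without topical mouse 3 or injected mouse 4 the higher membrane genes numbered 3 and 2. Arsa had an adjusted p of 0.0556 when only the 10 libraries compared were fitted (same test).

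Of 16 genes of the proton pump 2 fell, Atp6ap2 (log2 fold change -0.86, adjusted p 0.000425) and Atp6v1b2 (log2 fold change -0.54, adjusted p 0.0262), with a median over the list of -0.17. That share was 12.5%, beside 9.22% over all genes tested. The call of Atp6v1b2 did not hold without topical mouse 2 or without injected mouse 2, 5 or 7 (adjusted p up to 0.0710). Among 24 autophagy and MiT/TFE genes, 5 fell and none rose: Rragd, Plin2, Hmox1, Flcn and Gabarapl1. Rragd, a small GTPase that recruits MiT/TFE factors to the lysosome, was at 0.744, 2.19, 0.99991, 0.664 and 1.66 CPM topically and 0.176, 0.0489, 0.0703, 0.253 and 0 CPM after injection (log2 fold change -3.61, SE 0.67, adjusted p 0.00133). Rragd had 13 to 38 reads in topical and 0 to 4 reads in injected libraries. The injected values are near the floor of about 3 reads, so the size of its fall is poorly fixed. Its regulator Flcn ranged from 20.8 to 27.6 CPM topically and 12.5 to 18.7 CPM after injection (log2 fold change -0.68, adjusted p 0.00199). Plin2, a lipid droplet coat protein that is also a sebaceous marker, had overlapping libraries (log2 fold change -1.65, adjusted p 0.0194), and its call did not hold without topical mouse 5 or injected mouse 6 (adjusted p up to 0.0677). Without topical mouse 5, 3 of the 24 were lower.

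Among genes that handle iron and oxidants, 4 of 21 tested were lower after injection and none was higher. Ftl1, the ferritin light chain that stores iron, was at 1092, 708, 1207, 908 and 662 CPM topically and 298, 366, 408, 227 and 266 CPM after injection. Its injected libraries all lay below the topical ones (log2 fold change -1.55, SE 0.30, adjusted p 0.00177). Hmox1, the heme oxygenase that frees iron from heme, ranged from 5.92 to 9.17 CPM topically and 2.22 to 5.31 CPM after injection (log2 fold change -0.999, adjusted p 0.00769). Nqo1, a quinone reductase, fell as well (log2 fold change -0.76, adjusted p 0.0196), with overlapping libraries and topical mouse 2 highest at 7.64 CPM. The 4 genes of this NRF2 response list were Ftl1, Hmox1, Cbr3 and Nqo1, and the median of the 21 was -0.26. Only 2 were lower without topical mouse 2 or without injected mouse 6, and leaving out either also removed the call of Nqo1 (adjusted p up to 0.0746; 0.0503 with only the 10 libraries fitted).

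Glutathione transferases of the alpha class split. Gsta4, which removes products of lipid peroxidation, was at 1.31 to 3.34 CPM topically and 0.422 to 1.07 CPM after injection and fell (log2 fold change -1.53, adjusted p 0.00815). Gsta2 was at 6.10 to 12.5 CPM topically and 16.6 to 47.8 CPM after injection and rose (log2 fold change 1.57, adjusted p 0.00272), as did Gsta1. Gsta1 and Gsta2 are nearly identical, so reads may have been split between them. In the drug and xenobiotic list of 27 genes tested, 3 fell (Gsta4, Cyp2b10 and Nqo1) and 2 rose, with a median of -0.39. In this list, 1 gene fell without topical mouse 2 or injected mouse 6 and 5 without injected mouse 4, and 1 rather than 2 rose without topical mouse 2, 3, 5 or 7 or injected mouse 4, 5 or 6.

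More wound and stress genes of keratinocytes were lower than higher after injection, and the EGF receptor ligands Areg and Ereg of the same list were higher. Of 17 genes tested, 7 fell (Krt6b, Krt6a, Sprr1b, Mmp13, Krt16, Tnc and Plau) and 2 rose, and the median log2 fold change was -1.34. Sprr1b, a cornified envelope precursor of stressed epidermis, was at 222, 325, 514, 99.9 and 1106 CPM topically and 72.9, 22.7, 32.4, 53.4 and 86.7 CPM after injection. All injected libraries lay below all topical ones (log2 fold change -3.08, SE 0.72, adjusted p 0.00907). Tnc, the matrix protein tenascin C of healing skin, was at 9.24, 8.42, 7.54, 6.59 and 11.9 CPM topically and 5.02, 2.54, 2.64, 3.35 and 3.001 CPM after injection (log2 fold change -1.42, SE 0.26, adjusted p 0.00106). Mmp13, a collagenase of wound-edge cells, was at 0.436 to 3.73 CPM topically and 0.0881 to 0.316 CPM after injection (log2 fold change -2.63, adjusted p 0.00181).

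The size of the fall in the stress keratins rested partly on 1 mouse. Krt6a was at 386, 169, 483, 98.8 and 2147 CPM topically and 40.5, 37.5, 56.3, 22.4 and 79.0 CPM after injection (log2 fold change -3.80, SE 0.98, adjusted p 0.0195). Topical mouse 7 stood far above the other topical mice, and the gene was not called without it or without injected mouse 6 (edgeR quasi-likelihood, adjusted p up to 0.0732). Sprr2a3, a small proline-rich protein, showed the same mouse on top, at 431 CPM, with the other topical libraries down to 16.8 CPM in mouse 5 and injected ones at 1.26 to 8.14 CPM (log2 fold change -5.01, adjusted p 0.0255). Its call did not hold without topical mouse 7 or injected mouse 5, 6 or 7 (adjusted p up to 0.0664). Krt6a and Krt6b, and Sprr2a3 and its neighbours, are near-identical copies whose reads may be shared, and 3 rather than 7 wound genes were lower without injected mouse 6.

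Interferon-stimulated genes gave 6 lower and no higher genes among 17 tested of 32 on the list, with a median of -0.77. Ifi27l2a was at 6.89, 10.4, 14.3, 4.70 and 50.5 CPM topically and 2.29, 1.64, 2.32, 2.97 and 2.75 CPM after injection. Topical mouse 7 was again highest, and the libraries did not overlap (log2 fold change -2.85, SE 0.51, adjusted p 0.00103). Bst2, which tethers enveloped viruses, ranged from 1.84 to 10.2 CPM topically and 0.617 to 1.88 CPM after injection (log2 fold change -1.69, adjusted p 0.00771). Irf7, the factor that amplifies type I interferon, ranged from 1.29 to 10.1 and 0.808 to 2.29 CPM (log2 fold change -1.82, adjusted p 0.0110). Both overlapped between routes, and neither was called with only the 10 libraries fitted (adjusted p 0.0516 for Bst2; for Irf7 the highest over the alternatives was 0.0994). The antiviral sensors Oas1a and Oas1g, near-identical copies, and Lgals3bp were the other 3. Oas1g was not called without topical mouse 7 (adjusted p 0.109), which held 17.7 CPM, and 3 of the 17 were lower without that mouse. Among 21 chemokines and inflammatory cytokines tested, 1 fell, the neutrophil chemokine Cxcl1, and 1 rose, the interleukin 36 receptor antagonist Il1f5, and the median was -0.21. Together these calls made 9.52%, near the 9.22% over all genes tested. No chemokine was lower without topical mouse 2, 3, 4 or 5 or injected mouse 4, 5 or 6, and 2 were without injected mouse 7. Of 19 genes of NF-kappaB, none was called by edgeR (2 at an unadjusted p under 0.05, both higher; 0 by DESeq2 and 1 by limma voom), with log2 fold changes from -0.71 (Bcl3) to 0.78 (Tnfaip3).

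Glycolytic and hypoxia genes were lower after injection in 6 of 25 tested and higher in none, with 23 of 25 log2 fold changes below 0 and a median of -0.74. Pgk1, the ATP-making phosphoglycerate kinase, was at 66.8, 51.4, 70.5, 50.7 and 142 CPM topically and 29.1, 40.1, 34.4, 33.3 and 26.4 CPM after injection (log2 fold change -1.22, SE 0.28, adjusted p 0.00715). Egln3, a prolyl hydroxylase induced by hypoxia, was at 19.7, 25.2, 23.1, 11.2 and 72.2 CPM topically and 7.84, 7.04, 7.34, 8.35 and 7.57 CPM after injection (log2 fold change -1.98, SE 0.46, adjusted p 0.00836). Topical mouse 7 was highest for both, and every other topical library still exceeded every injected one. Slc16a3, the lactate exporter, and Gapdh fell (log2 fold change -1.86, adjusted p 0.0196 and log2 fold change -1.10, adjusted p 0.0198), as did Car9 and Gpi1. The call of Slc16a3 did not hold without topical mouse 7 or injected mouse 4 or 5 (adjusted p up to 0.0619), and that of Gapdh not without topical mouse 7 or injected mouse 6 or 7 (up to 0.0577). Without topical mouse 7, 2 of the 25 were lower, and without injected mouse 5, 3 were. Nuclear genes of oxidative phosphorylation had no call by edgeR among 53 (5 at an unadjusted p under 0.05, all lower; 0 by DESeq2 and 7 lower by limma voom), with 50 log2 fold changes below 0 and a range of -0.71 to 0.19.

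More genes of the outermost epidermis were higher than lower after injection. Of 25 cornified envelope and late differentiation genes tested, of 35 on the list, 12 rose and 1 fell, with a median log2 fold change of 1.03. The 12 were Ivl, Asprv1, Tgm1, Crct1, Cnfn, Spink5, Cdsn, Klk5, Lor, Hrnr, Kprp and Flg2, and the 1 that fell was Sprr1b. Between 9 and 12 were higher when any 1 cKO library was left out. Flg2, a filaggrin relative of the cornified layer, was at 0.627, 2.59, 0.615, 0.740 and 0.784 CPM topically and 5.28, 3.45, 15.9, 19.1 and 25.9 CPM after injection. The 5 injected libraries lay above all topical ones, of which mouse 3 was highest (log2 fold change 3.71, SE 0.48, adjusted p 6.23e-05). Kprp, a proline-rich keratinocyte protein, was also apart between routes, with topical mouse 3 again the highest of its group, at 1.959, 5.36, 2.00, 2.09 and 1.05 CPM topically and 5.90, 10.1, 23.3, 21.5 and 18.9 CPM after injection (log2 fold change 2.67, SE 0.40, adjusted p 0.000226).

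A protease that sheds cornified cells and its inhibitor both rose. Klk5, a kallikrein that cuts corneodesmosomes, was at 13.0, 21.5, 23.2, 8.73 and 20.5 CPM topically and 29.2, 104, 119.7, 127 and 79.5 CPM after injection (log2 fold change 2.41, SE 0.37, adjusted p 0.000258). Its inhibitor Spink5 was at 44.4, 78.8, 43.8, 42.4 and 46.9 CPM topically and 117, 189, 309, 319 and 253 CPM after injection (log2 fold change 2.21, SE 0.25, adjusted p 3.01e-05). Injected mouse 2 lay nearest to the topical mice for Klk5, and topical mouse 3 nearest to the injected mice for Spink5. Suprabasal genes gave 5 higher (Skint3, Dsg1a, Sbsn, Dsc1 and Krt78) and none lower of 18, with a median of 0.53. Dsc1, a desmosomal cadherin of upper layers, ranged from 2.07 to 4.38 CPM topically and 6.08 to 9.80 CPM after injection (log2 fold change 1.26, adjusted p 0.0144). Skint3, of a keratinocyte family named for selecting intraepithelial T cells, was at 9.24 to 33.7 and 19.3 to 48.1 CPM, with injected mouse 2 lowest among the injected (log2 fold change 1.09, adjusted p 0.0202). The suprabasal count rested on single mice: 1 was higher without topical mouse 2, 2 without topical mouse 3 or injected mouse 5 or 6, and 3 without injected mouse 4. Without topical mouse 5 none of the 18 was called, Dsc1 at an adjusted p of 0.0519 and Skint3 at up to 0.0622, the latter also not called without topical mouse 2 (edgeR quasi-likelihood). Basal keratinocyte genes had 1 higher and 1 lower of 19 (10.5%, near the 9.22% over all genes tested) and a median of -0.12.

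Barrier lipid genes rose in 7 of 20 tested and fell in none, with a median of 0.57 and 5 to 8 higher when any 1 cKO library was left out. The 7 act at separate steps, and 13 of the 20 were not called. Those that rose were Elovl1 and Elovl4, which lengthen fatty acids, Sptlc3 of ceramide synthesis, and Cyp4f39, which hydroxylates very long chains. The others that rose were Abca12, which loads lipid into lamellar granules, the lipase Lipm and the dehydrogenase Sdr9c7. Sptlc3 was at 40.6, 43.2, 45.9, 34.0 and 43.9 CPM topically and 59.8, 125, 124, 131 and 86.0 CPM after injection (log2 fold change 1.34, SE 0.20, adjusted p 0.000226). Lipm was at 15.3, 21.4, 16.9, 11.4 and 24.1 CPM topically and 44.7, 45.7, 45.8, 42.3 and 44.8 CPM after injection (log2 fold change 1.33, SE 0.21, adjusted p 0.000323). Neither gene overlapped between routes. Sdr9c7 ranged from 0.842 to 2.25 CPM topically and 2.82 to 9.30 CPM after injection (log2 fold change 1.87, adjusted p 0.00272), and Elovl1, which overlapped, had a smaller difference (log2 fold change 0.98, adjusted p 0.00602). Cholesterol synthesis, another source of barrier lipid, had no call by edgeR among 23 genes (2 higher and 6 lower at an unadjusted p under 0.05; 0 by DESeq2, 4 lower by limma voom, and 3 lower without injected mouse 4), with log2 fold changes from -0.72 (Idi1) to 0.45 (Sc5d).

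Junction genes were higher in 6 of 27 (among them Tjp3, Gjb5, Cgn, Gjb2 and Cldn23) and lower in 1 (Pkp2), with a median of 0.45 and 4 to 7 higher when any 1 cKO library was left out. Gjb2, the connexin 26 of gap junctions, ranged from 2.59 to 3.66 CPM topically and 6.15 to 18.7 CPM after injection (log2 fold change 1.77, adjusted p 0.000965). Cldn23, a tight junction claudin, was at 1.53, 3.75, 1.92, 0.868 and 3.22 CPM topically and 4.67, 6.77, 9.63, 10.9 and 10.0 CPM after injection (log2 fold change 1.94, SE 0.33, adjusted p 0.000560). Cgn, the tight junction scaffold cingulin, rose with overlapping libraries (log2 fold change 1.71, adjusted p 0.000965). The desmosomal plaque gene Pkp2 was low, at 0.523 to 2.55 CPM topically with mouse 5 highest, and 0.190 to 0.440 CPM after injection (log2 fold change -2.06, adjusted p 0.00656).

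**Figure D2:**
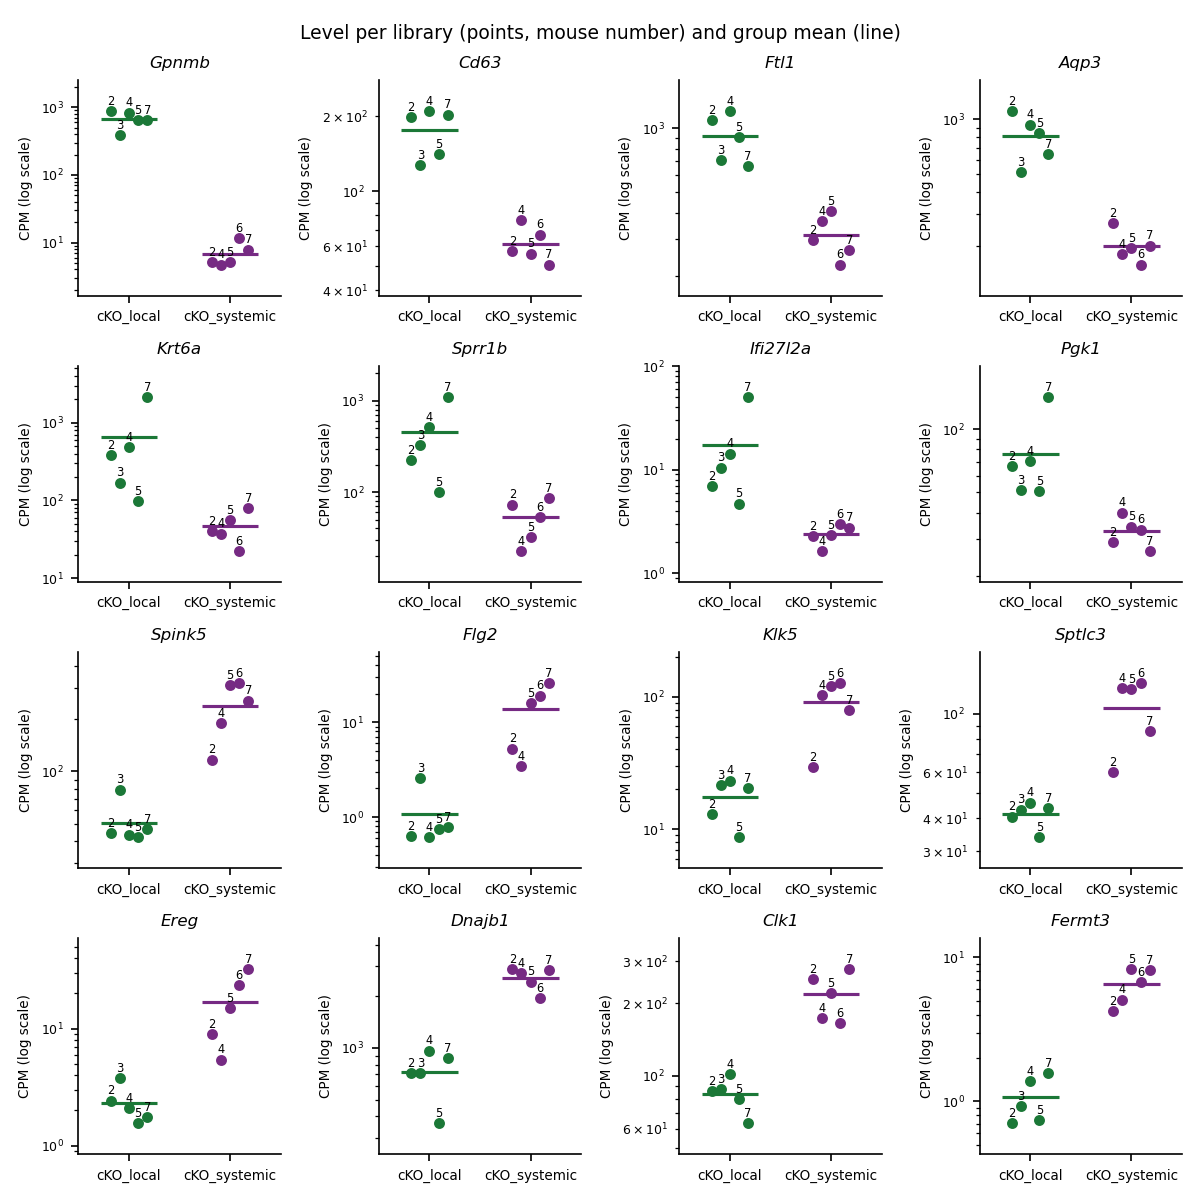
Level (CPM, log scale, vertical axes) for the 16 genes shown, in each of the 10 cKO libraries, numbered by mouse, with lines at the group means. For Gpnmb, Ftl1 and Sprr1b the 5 injected cKO libraries lie below the 5 topical ones, and for Flg2 and Klk5 above them.

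Ligands of the EGF receptor family and its feedback genes differed in both directions. Of 21 tested, 6 rose (Erbb3, Erbb2, Spry1, Areg, Btc and Ereg) and 2 fell (Etv4 and Dusp4), with a median of 0.18. Ereg, the ligand epiregulin, was at 2.43, 3.75, 2.08, 1.56 and 1.74 CPM topically and 8.90, 5.43, 14.9, 23.5 and 32.1 CPM after injection (log2 fold change 2.87, SE 0.42, adjusted p 0.000182). Areg, the ligand amphiregulin, was at 1.18, 5.42, 4.9996, 2.20 and 5.75 CPM topically and 6.08, 6.62, 12.0, 14.4 and 16.01 CPM after injection (log2 fold change 1.54, SE 0.37, adjusted p 0.0111). Both sets of libraries lay apart, as they did for the ligand betacellulin, Btc, at 0.153 to 0.288 CPM topically and 0.440 to 1.59 CPM after injection (log2 fold change 2.45, adjusted p 0.00519). Etv4, a transcription factor induced by the pathway, was at 2.54 to 5.75 CPM topically and 0.176 to 1.75 CPM after injection (log2 fold change -1.74, adjusted p 0.00929), and the phosphatase Dusp4 fell with overlapping libraries (log2 fold change -1.60, adjusted p 0.0132).

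Immediate early genes of the AP-1 and EGR families were higher in 7 of 25 tested and lower in none, with a median of 0.48: Fosl2, Fos, Btg2, Fosb, Ier2, Egr2 and Egr1. Egr1 was at 341, 288, 621, 222 and 528 CPM topically and 847, 1269, 1557, 652 and 1519 CPM after injection (log2 fold change 1.55, SE 0.37, adjusted p 0.00982). Egr2 ranged from 29.1 to 32.4 CPM topically and 45.3 to 127 CPM after injection (log2 fold change 1.37, adjusted p 0.00247), and Fosb rose with overlapping libraries (log2 fold change 1.14, adjusted p 0.0214). Fosb was not called without topical mouse 2 or 5 or injected mouse 7 (adjusted p up to 0.0645; 0.0525 with only the 10 libraries fitted), and 2 of the 25 were higher without topical mouse 2 or injected mouse 7, 3 without topical mouse 5, and 4 without topical mouse 3 or injected mouse 4 or 5. Genes that rise when tissue is dissociated into cells, a list that shares Fos, Fosb, Egr1, Ier2 and Btg2 with this one, summed to 34192 to 39510.0 CPM in topical and 49374 to 71837 CPM in injected libraries, without overlap (exact two-sided permutation p 0.0079, the smallest that 5 against 5 mice allow). These sums are CPM of the library total. Scaled with TMM factors, as single genes are, they overlapped (exact two-sided permutation p 0.0159). Of the 20 dissociation genes 6 rose and none fell, and 2 rose without topical mouse 2 or 5 or injected mouse 7, and 3 without topical mouse 3 or injected mouse 4 or 5. Their part in the immediate early, EGF ligand and heat shock results was not tested.

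Of 18 heat shock genes 2 rose, Dnajb1 and Hspb1, and none fell, a share (11.1%) near the 9.22% called over all genes tested. Dnajb1, an HSP40 co-chaperone, was at 715, 712, 965, 364 and 872 CPM topically and 2879, 2722, 2434, 1952 and 2849 CPM after injection (log2 fold change 1.82, SE 0.32, adjusted p 0.000802). Hspb1, the small heat shock protein HSP27, ranged from 1358 to 3046 CPM topically and 4097 to 5866 CPM after injection (log2 fold change 1.12, adjusted p 0.0185), and was not called without topical mouse 5 (adjusted p 0.0596). The median over the list was 0.07, and 2 members were lower without injected mouse 4. Among 36 splicing factors 3 rose (8.33%, against 9.22% over all genes tested) and none fell. They were the kinases Clk1 (log2 fold change 1.39, adjusted p 5.22e-05) and Clk4 (log2 fold change 0.64, adjusted p 0.0133), which phosphorylate SR proteins, and Rsrp1. The call of Rsrp1 was lost with only the 10 libraries fitted and with sex or satellite-like transcripts as a covariate. It was also lost without topical mouse 3, 4, 5 or 7 or injected mouse 2 or 7 (edgeR quasi-likelihood, adjusted p up to 0.177). The SR and hnRNP proteins themselves had log2 fold changes from -0.46 (Srsf1) to 0.42 (Srsf7), and none was called.

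Outside these lists, the strongest rises after injection were in genes of several kinds. Skint5, a relative of Skint3, was at 23.5, 27.3, 40.9, 14.5 and 38.7 CPM topically and 81.2, 172, 185, 143 and 132 CPM after injection (log2 fold change 2.31, SE 0.27, adjusted p 3.01e-05). B4galnt2, a glycosyltransferase, was at 0.0783, 0.519, 0.462, 0.460 and 0.523 CPM topically and 2.20, 6.28, 7.31, 8.79 and 5.19 CPM after injection (log2 fold change 3.92, SE 0.45, adjusted p 3.01e-05). Crabp2, which carries retinoic acid to its receptor, was at 6.62, 9.69, 10.5, 7.66 and 7.06 CPM topically and 15.3, 48.2, 65.6, 43.8 and 37.5 CPM after injection (log2 fold change 2.35, SE 0.28, adjusted p 3.07e-05). No library of one route reached into the other for these 3 genes. Fermt3, an integrin activator of blood cells, ranged from 0.705 to 1.57 CPM topically and 4.23 to 8.29 CPM after injection, Abtb2 from 8.02 to 12.8 and 27.9 to 37.8 CPM, and the ubiquitin ligase Neurl3 from 0.901 to 1.85 and 2.82 to 11.9 CPM, topical values first. Also apart were Ano9 (log2 fold change 1.67, adjusted p 3.09e-05), a membrane protein of the anoctamin family, Asap3 (log2 fold change 1.38, adjusted p 3.53e-05), a GTPase activator for ARF proteins, and Gdpd2 (log2 fold change 1.33, adjusted p 5.22e-05), a phosphodiesterase.

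Among the genes with the largest rises were Ifitm6 and Wfdc21, both nearly silent after topical treatment. Ifitm6 was at 0.157, 0.865, 0.231, 0.204 and 0.261 CPM topically and 2.11, 4.99, 19.2, 10.2 and 15.8 CPM after injection (log2 fold change 4.99, SE 0.72, adjusted p 0.000194). Wfdc21 was at 0.118, 0.980, 0.231, 0.230 and 0.0871 CPM topically and 1.67, 2.44, 13.4, 10.7 and 9.003 CPM after injection (log2 fold change 4.51, SE 0.57, adjusted p 5.22e-05). Topical mouse 3 was the highest topical library for both, as it was for Flg2, Kprp and Spink5. Tspan8, a tetraspanin, was at 0.940 to 3.54 CPM topically and 8.37 to 31.7 CPM after injection (log2 fold change 3.30, adjusted p 6.23e-05).

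The strongest falls included Uap1l1, at 16.9 to 22.5 CPM topically and 4.50 to 9.16 CPM after injection, and the tetraspanin Tspan3, at 47.8 to 63.4 and 19.4 to 31.5 CPM. Aqp3, the water and glycerol channel of basal keratinocytes, was at 1117, 514, 936, 841 and 647 CPM topically and 269, 181, 195, 158 and 202 CPM after injection (log2 fold change -2.01, SE 0.29, adjusted p 0.000149). Gk, the glycerol kinase that acts on what Aqp3 brings in, was at 24.4, 21.7, 18.7, 22.1 and 21.2 CPM topically and 13.6, 10.4, 7.70, 10.8 and 9.003 CPM after injection (log2 fold change -1.08, SE 0.15, adjusted p 9.57e-05). The 2 groups lay apart for both. Pyy, a gut hormone gene, was at 8.09 to 325 CPM topically and 1.33 to 5.81 CPM after injection (log2 fold change -4.88, adjusted p 0.00551), and Krt7, a keratin of glands and simple epithelia, at 7.89 to 138 and 3.23 to 5.69 CPM (log2 fold change -3.80, adjusted p 0.00151). Cpe, a peptide-processing carboxypeptidase, was at 61.3 to 97.2 CPM topically and 27.4 to 36.7 CPM after injection (log2 fold change -1.32, adjusted p 0.000150). Chil1, a chitinase-like secreted protein (log2 fold change -1.65, adjusted p 0.000171), Bri3 (log2 fold change -1.22, adjusted p 0.000109) and the folate enzyme Aldh1l1 (log2 fold change -1.29, adjusted p 0.000149) fell without overlap.

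Targets of p53 were lower in 6 of 23 tested (Ddit4l, Ptp4a3, Pmaip1, Bax, Ccng1 and Aen) and higher in 2 (Sesn1 and Plk2), with a median of -0.24. That median ran from -0.32 to -0.09 when 1 cKO library was left out, and reached 0.03 over the other alternatives. No p53 target was higher without topical mouse 5, and 1 was without topical mouse 2, 3 or 4 or injected mouse 2, 5 or 6. Bax, the pore-forming protein of apoptosis, was at 23.5, 20.4, 28.8, 20.9 and 27.6 CPM topically and 14.5, 13.3, 12.3, 13.4 and 11.9 CPM after injection (log2 fold change -0.89, SE 0.15, adjusted p 0.000531). Ptp4a3, a phosphatase, ranged from 18.3 to 54.4 CPM topically and 7.77 to 12.0 CPM after injection (log2 fold change -1.69, adjusted p 0.000150). Pmaip1, the BH3 protein NOXA, and Ccng1, cyclin G1, fell with overlapping libraries (log2 fold change -1.10, adjusted p 0.00554 and log2 fold change -0.72, adjusted p 0.0109).

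Targets of ATF4, which answers amino acid shortage, were lower in 5 of 23 (Vldlr, Mthfd2, Aars, Asns and Cars) and higher in none, with a median of -0.29. Aars, the alanyl-tRNA synthetase, ranged from 37.2 to 46.1 CPM topically and 20.1 to 29.7 CPM after injection (log2 fold change -0.69, adjusted p 0.000436), and the lipoprotein receptor Vldlr from 5.402 to 17.3 and 3.50 to 4.39 CPM (log2 fold change -1.69, adjusted p 0.000673). Mthfd2 of mitochondrial folate metabolism fell (log2 fold change -1.01, adjusted p 0.0176), a call lost without topical mouse 2 or 5 (adjusted p up to 0.0542; 0.0762 with the mouse number as a block), and 3 of the list were lower without either mouse. Without injected mouse 2, 1 member was higher. The unfolded protein response had no call by edgeR among 20 genes (1 lower at an unadjusted p under 0.05; 0 by DESeq2 and by limma voom), from -0.44 (Sdf2l1) to 0.21 (Hsp90b1).

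DNA replication and mitosis genes were lower in 4 of 36, E2f1 and the replicative helicase subunits Mcm2, Mcm3 and Mcm7, and 33 of 36 log2 fold changes were below 0, with a median of -0.28. The share called was 11.1%, near the 9.22% over all genes tested. When 1 cKO library was left out, the median ran from -0.34 to -0.11. Mcm3 ranged from 12.8 to 24.7 CPM topically and 8.93 to 10.9 CPM after injection (log2 fold change -0.86, adjusted p 0.00768). Mcm7 fell as well (log2 fold change -0.56, adjusted p 0.0181), a call lost without topical mouse 5 or injected mouse 7 (adjusted p up to 0.0598; 0.0504 with the mouse number as a block), and 1 of the 36 was lower without either mouse and 2 without topical mouse 2 or injected mouse 6. Ribosomal protein genes had no call by edgeR among 53 (3 at an unadjusted p under 0.05, all lower; 1 lower by DESeq2 and 3 by limma voom), with 51 log2 fold changes below 0, from -0.73 (Rpl12) to 0.11 (Rps7).

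Wnt genes split, with 4 lower (Dkk3, Fzd7, Fzd1 and Sfrp1) and 2 higher (Axin2 and Wnt16) of 26 and a median of -0.10. Dkk3, a secreted protein of the dickkopf family, was at 25.7, 26.9, 17.6, 29.1 and 20.5 CPM topically and 8.90, 10.2, 12.9, 7.40 and 9.63 CPM after injection (log2 fold change -1.28, SE 0.17, adjusted p 8.28e-05). Sfrp1, a secreted Wnt inhibitor, ranged from 21.7 to 31.7 CPM topically and 11.1 to 17.4 CPM after injection (log2 fold change -0.82, adjusted p 0.00248). The receptor Fzd7 fell with overlapping libraries, injected mouse 7 being the highest injected one at 8.44 CPM (log2 fold change -1.24, adjusted p 0.00901). The higher Wnt genes numbered 1 without topical mouse 2, 4, 5 or 7 or injected mouse 2, 6 or 7. Notch genes had no call by edgeR among 15 (3 higher and 1 lower at an unadjusted p under 0.05; 1 in each direction by DESeq2 and 0 by limma voom), from -0.73 (Notch1) to 0.80 (Notch2).

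Glucocorticoid targets bear most directly on the deleted enzyme. Of 19 tested, 2 were lower after injection, Klf15 and Lcn2, and none was higher, a share near the 9.22% called over all genes tested, with a median of 0.07. The sign of that median was not stable: it ran from -0.23 to 0.09 when 1 cKO library was left out. Klf15, a transcription factor that the glucocorticoid receptor induces in many tissues, was at 2.12, 1.90, 1.62, 3.22 and 2.61 CPM topically and 0.793, 0.391, 0.703, 0.632 and 0.875 CPM after injection. The 5 injected libraries were all lower (log2 fold change -1.80, SE 0.28, adjusted p 0.000317). Lcn2, the iron-binding lipocalin 2 of inflamed epithelia, ranged from 1.67 to 4.65 CPM topically and 0.264 to 1.26 CPM after injection (log2 fold change -2.12, adjusted p 0.00548). Without topical mouse 4, 4 targets were lower. Of 6 genes of steroid synthesis and steroid receptors none was called by edgeR, DESeq2 or limma voom, and 0 had an unadjusted p under 0.05: the glucocorticoid receptor Nr3c1 had a log2 fold change of 0.04 and the mineralocorticoid receptor Nr3c2 of 0.53. Among 19 clock genes the repressor Bhlhe41 fell with overlapping libraries (log2 fold change -1.87, adjusted p 0.00548), and Rora and Arntl rose. Without topical mouse 3, 4 or 5 or injected mouse 7, 1 clock gene was higher, and without any other cKO mouse none was.

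The counts of the remaining lists are read against the 9.22% called over all genes tested, and nothing particular to a list is drawn from them. Of 18 genes of fatty acid synthesis 1 rose (Elovl1), of 9 of sterol efflux 1 (Abcg1), of 18 of fatty acid oxidation 1 (Hadhb), of 8 estrogen receptor targets 1 (Areg), of 6 metallothionein and zinc genes 1 (Mt4) and of 28 of antigen presentation 1 (Nlrc5). In fatty acid synthesis, 2 genes were higher without injected mouse 2, and 2 were lower without injected mouse 4. No sterol efflux gene was called without topical mouse 5 or 7 or injected mouse 6, no metallothionein or zinc gene without topical mouse 3 or 5 or injected mouse 4 or 5, and no antigen presentation gene without topical mouse 2 or 5 or injected mouse 2. Estrogen receptor targets bear on tamoxifen, which binds that receptor, and their median log2 fold change was -0.02. Of 22 genes of TGF-beta and BMP signalling 2 fell (Tgfbr2 and Bmp7). That count was 0 without topical mouse 2 or injected mouse 5 or 7, and 1 without topical mouse 5 or 7 or injected mouse 2 or 6. Of 24 integrin and migration genes 1 rose (Fermt3) and 1 fell (Mcam), or 3 without topical mouse 7. The 9 mitochondrially encoded genes had no call by edgeR, DESeq2 or limma voom and 0 at an unadjusted p under 0.05.

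**Figure D3:**
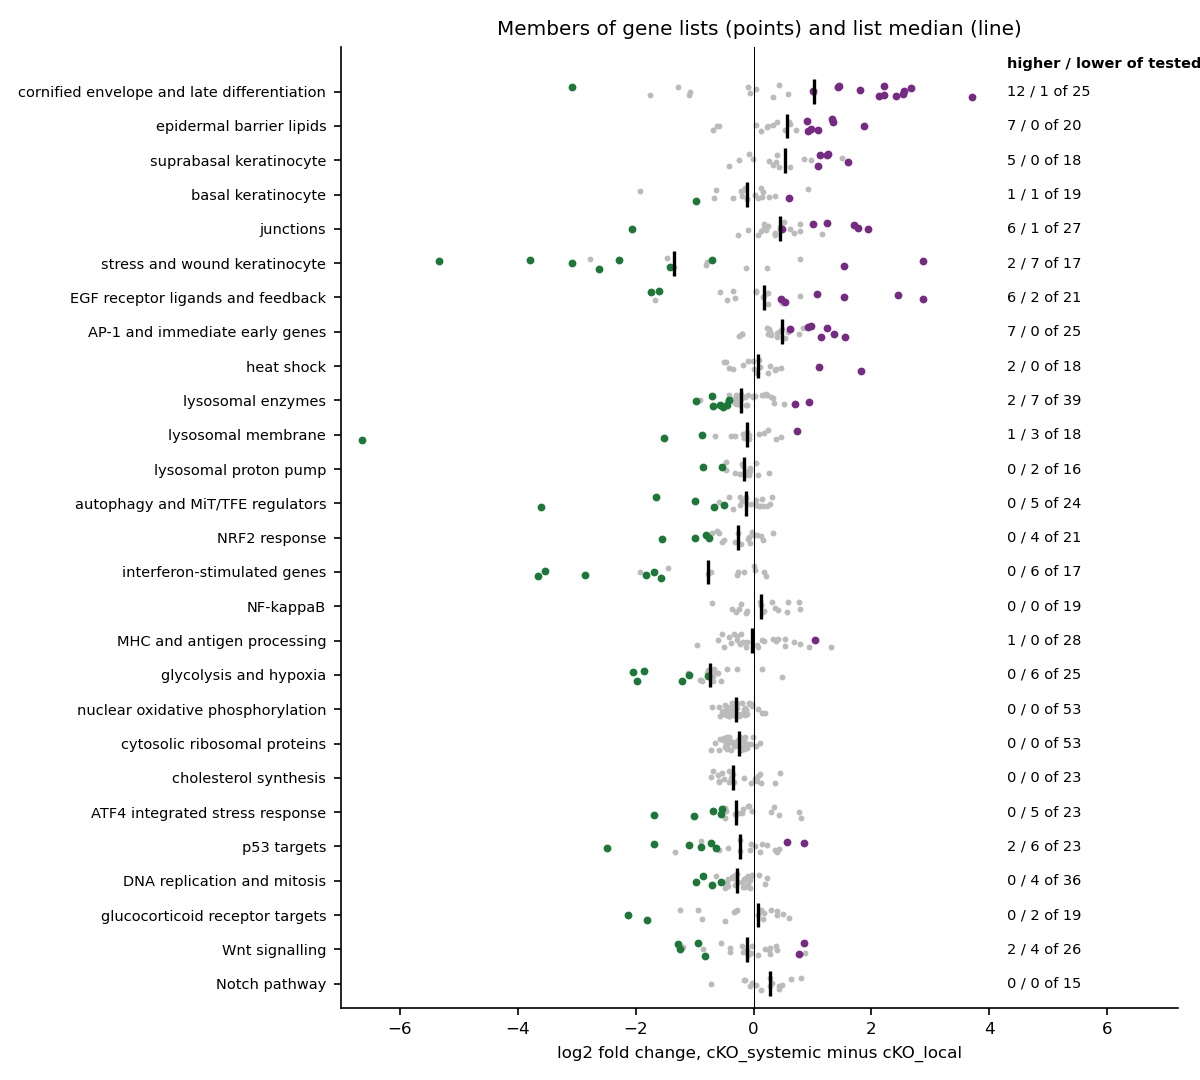
Log2 fold change (injected minus topical cKO, horizontal axis) of every tested member of 27 gene lists, 1 row a list, with called members coloured, a line at each median and the called counts at the right. Cornified envelope genes lie mostly to the right of 0 with 12 of 25 called higher, and wound, glycolysis and NRF2 genes mostly to the left.

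The same route comparison in the Cre-negative littermates shares no library with the one in the knockouts, and puts the values above beside mice with an intact gene. In controls 2277 genes were called (18.3% of those tested), 1263 (10.2%) higher and 1014 (8.16%) lower after injection. Both comparisons called 452 genes in the same direction, 39.5% of the calls in cKO and 19.9% of those in controls, and 1008 of the 1145 cKO calls had the same sign in controls. Genes called higher in cKO had a median log2 fold change of 0.94 there and 0.44 in controls, and those called lower had -0.87 and -0.52. The control comparison rests on 5 injected control libraries that all held more satellite-like transcripts than 9 of the 10 cKO libraries: with that amount as a covariate 118 genes were called in controls, and without control mouse fl_ctrl_systemic 3 the count was 1463.

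Some of the members described above were called in controls as well, and others were not. Gpnmb had a log2 fold change of -6.43 in controls (adjusted p 4.56e-10), Ftl1 of -1.07 (0.0146), Krt6a of -0.74 (0.593), Flg2 of 1.85 (0.00985), Klk5 of 0.83 (0.102) and Klf15 of -0.99 (0.0188), all by the same edgeR test. By list, 2 cornified envelope genes were higher and none lower in controls (median 0.35), against 12 and 1 in cKO. Barrier lipid genes were higher in 1 and lower in 3 in controls (median -0.10). Immediate early genes were higher in 7 and lower in none, as in cKO, and lysosomal enzymes higher in 1 and lower in 9. Ribosomal protein genes were lower in 28 of 53 and cholesterol synthesis genes in 9 of 23 in controls, against none in cKO. These are counts side by side, and no list was tested for a difference between the genotypes.

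The difference between the 2 route effects was tested gene by gene as an interaction, which called 31 genes (0.25% of those tested), 23 with a more positive route effect in cKO. Of the 31, 11 were also called in cKO. Cd82, a tetraspanin, was at 17.1, 25.5, 27.9, 17.2 and 27.4 CPM topically and 24.9, 112, 127, 106 and 79.0 CPM after injection in cKO (log2 fold change 1.97, SE 0.29, adjusted p 0.000198), with a log2 fold change of -0.17 in controls and an interaction of 2.14 (SE 0.40, adjusted p 0.0203). Injected mouse 2 lay within the topical range, and the other injected mice well above it. Nkd2, an inhibitor of Wnt signalling, was at 4.09 to 11.4 CPM topically and 21.1 to 39.1 CPM after injection in cKO, with log2 fold changes of 2.18 in cKO and 0.15 in controls (interaction adjusted p 0.0138). D7Ertd443e had 2.26 in cKO and 0.10 in controls (adjusted p 0.0115), and the ceramide gene Sptlc3 1.34 and -0.02 (0.0420). Glb1, Ifi30, a thiol reductase of lysosomes, and Atp2c2, a calcium and manganese pump, also had the more positive effect in cKO.

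Mgmt, the DNA repair protein that removes alkyl groups from guanine, went the other way, at 8.97, 8.19, 10.7, 7.12 and 10.8 CPM topically and 3.35, 3.01, 3.87, 5.38 and 4.50 CPM after injection in cKO (log2 fold change -1.19, SE 0.18, adjusted p 0.000226), against a log2 fold change of 0.21 in controls (interaction -1.40, adjusted p 0.0165). Dcxr, a sugar reductase, Sulf2, which trims heparan sulfate, and the glutamine transporter Slc1a5 also had a more negative effect in cKO, with log2 fold changes of -0.95, -0.86 and -0.87 in cKO and 0.20, 0.66 and 0.58 in controls. Calls in cKO were lost for Ifi30 without topical mouse 2, 3 or 5 or injected mouse 5 (adjusted p up to 0.0841) and for Slc1a5 without topical mouse 5 (0.0506). The number of genes with an interaction moved from 16 without injected cKO mouse 5 to 470 without injected cKO mouse 2, was 150 without fl_ctrl_systemic 1, 17 without fl_ctrl_local 7, 18 without either topical cKO mouse 5 or fl_ctrl_systemic 5, 19 without injected cKO mouse 6 and 20 without injected cKO mouse 4, and was 0 with satellite-like transcripts as a covariate (555 at an unadjusted p under 0.05).

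**Figure D4:**
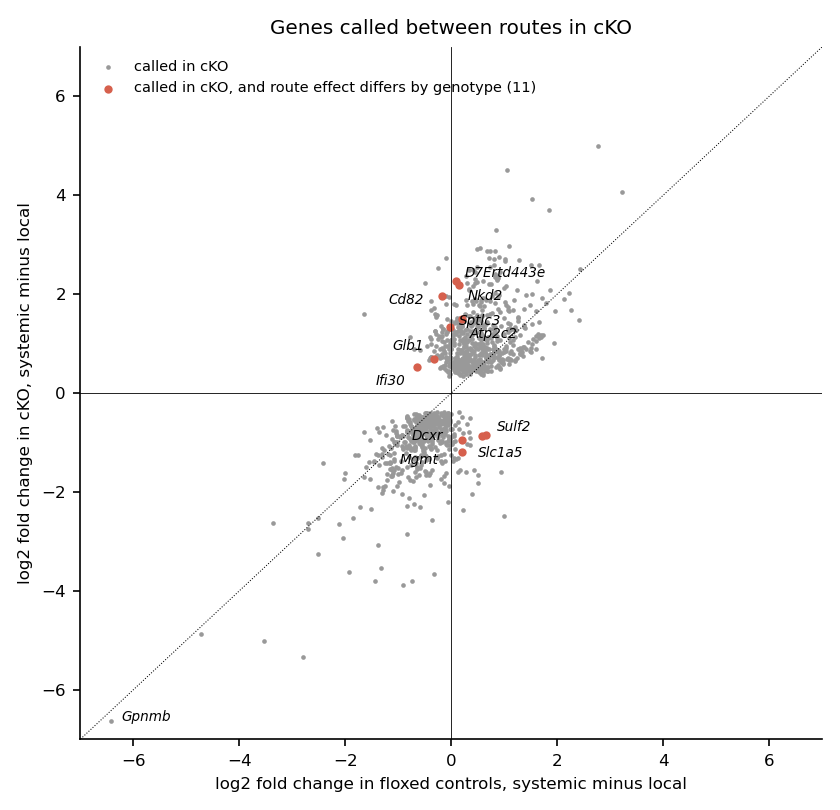
Log2 fold change between routes in controls (horizontal axis) against that in cKO (vertical axis), for 1136 of the 1145 genes called in cKO (9 lie beyond the axes), with a dotted line of equal values and the 11 genes with a called interaction labelled. Of the 1145 genes 1008 have the same sign on both axes.

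Markers of other cells that a keratinocyte sort could hold were summed in each library as CPM of the library total. Keratinocyte-defining genes summed to 104730.0 to 123360.0 CPM topically and 94709 to 112580.0 CPM after injection, with all 10 members found. The T cell genes Cd8a and Cd4, the neutrophil genes Ly6g, Elane and Retnlg and 5 of 7 mast cell genes were at 0 in all 10 libraries. Macrophage and dendritic cell genes summed to 3.79 to 8.68 and 4.37 to 6.04 CPM, T cell genes to 4.13 to 9.21 and 2.54 to 7.11 CPM, and melanocyte genes to 5.76 to 13.5 and 8.23 to 11.8 CPM, topical first. These overlapped between routes.

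Hair follicle bulge genes summed to 7723 to 12662 CPM topically and 15366 to 19739 CPM after injection, without overlap (exact two-sided permutation p 0.0079, adjusted over the marker lists 0.0714). Scaled with TMM factors, these bulge sums overlapped (exact two-sided permutation p 0.0238). Of the 11 bulge members tested, 8 had log2 fold changes below 0, with a median of -0.49, so the sum did not follow most members. Lgr6 was higher (log2 fold change 0.58, adjusted p 0.0306) and Tbx1 lower (log2 fold change -1.05, adjusted p 0.0121). No member was higher without topical mouse 3, 5 or 7 or injected mouse 4 or 5, and Lgr6 also lost its call without topical mouse 4 (adjusted p up to 0.0840). The keratin Krt15, with most of the counts and also made by basal keratinocytes, was at 9648 ± 4205 CPM topically and 18365 ± 4299 CPM after injection (SD, n = 5 each; edgeR quasi-likelihood, log2 fold change 0.93, adjusted p 0.0686). Erythroid genes summed to 0.889 to 2.04 CPM and 3.45 to 7.25 CPM, also without overlap (exact two-sided permutation p 0.0079, adjusted 0.0714), with the hemoglobin gene Hba-a1, nearly identical to Hba-a2, at 0.610 to 1.46 and 2.99 to 6.61 CPM (log2 fold change 2.71, adjusted p 5.22e-05). Sebaceous genes summed to 1164 to 4327 and 215 to 3172 CPM (exact two-sided permutation p 0.159), a list that holds Krt7 and Plin2. Of the 14 sebaceous genes 13 had log2 fold changes below 0, with a median of -1.11. The test called 2 of them lower, and 1 to 5 when 1 cKO library was left out. Neutrophil genes, a list with S100a8 and S100a9, which stressed keratinocytes also make, summed to 1.61 to 6.75 and 0.519 to 2.15 CPM (exact p 0.0476, adjusted 0.214).

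Endothelial genes summed to 3.36 to 22.4 and 3.12 to 8.54 CPM, with Cldn5, a claudin of vessels, lower after injection (log2 fold change -1.66, adjusted p 0.00742) and highest in topical mouse 5. That mouse also had the highest sum of fibroblast genes, 126 CPM, against 25.9 to 50.8 CPM over the other topical mice and 32.0 to 50.2 CPM over the injected mice (exact two-sided permutation p 0.762). Of 7 fibroblast genes tested none was called, and all 7 log2 fold changes were below 0. Their median was -1.12, and -0.26 at the smallest when 1 cKO library was left out. Langerhans cell genes summed to 127 to 216 and 109 to 247 CPM, and its member Mfge8, which many cell types make, was lower (log2 fold change -1.56, adjusted p 0.000915). Hox genes of the trunk, which mark dorsal more than ear skin, summed to 14.3 to 37.6 CPM topically and 29.99 to 36.7 CPM after injection (exact p 0.0635), with topical mouse 7 highest and topical mouse 2 lowest. Of 10 Hox genes tested 9 had log2 fold changes above 0, with a median of 0.76. None was called by edgeR (4 higher at an unadjusted p under 0.05, 1 higher by DESeq2 and 2 by limma voom). No marker list passed an adjusted p of 0.05. The bulge and erythroid lists stood at the smallest p that 5 against 5 mice allow (exact two-sided permutation p 0.0079). Adjusted over 18 lists that p became 0.0714, so even lists wholly apart between routes could not pass here. Nothing is drawn from this, and the part of these sums in the gene results was not tested.

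**Figure D5:**
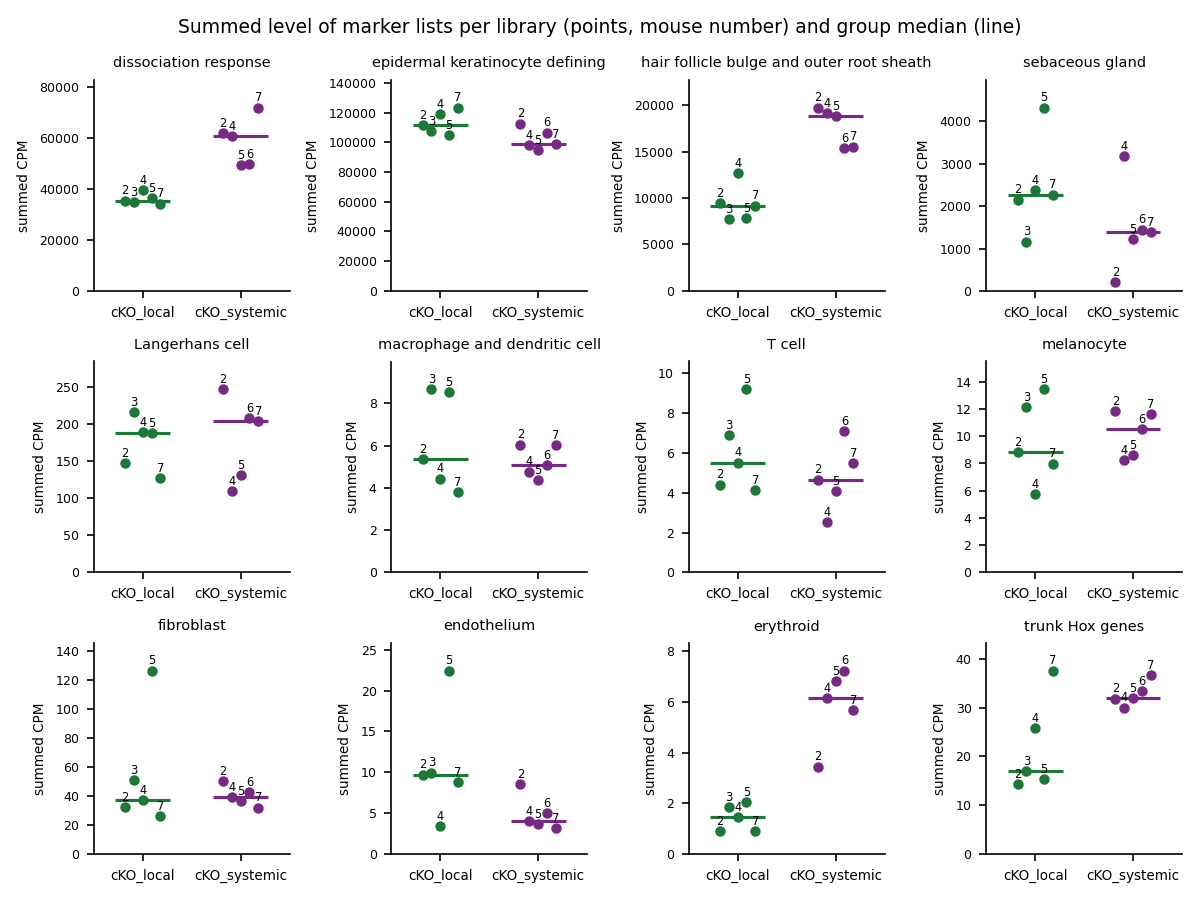
Summed level of 12 marker lists (CPM of the library total, linear axes from 0) in each cKO library, topical beside injected, numbered by mouse, with lines at the group medians. On this scale dissociation, bulge and erythroid sums do not overlap between routes, and keratinocyte-defining genes exceed every other list shown. With TMM scaling the dissociation and bulge sums overlap.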

How the data were processed

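Bulk RNA-seq of sorted keratinocytes was analysed from 1 table of raw counts, whole reads per gene and mouse without normalization, as deposited by the authors. Per the submitters' processing notes STAR, featureCounts and GRCm38/mm10 were used, with versions and strand setting not given in the sources used here. A single edgeR model (version 4.0.16, R 4.3.3) held all 20 libraries, with TMM scaling (filterByExpr with minimum count 10 and minimum total 15, leaving 12424 of 25719 genes, robust quasi-likelihood, two-sided F tests), with 1 coefficient a group. P-values were Benjamini-Hochberg adjusted over all genes tested and genes called at an adjusted p under 0.05. The pipeline was tested on simulated data.

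Single-gene levels are TMM-scaled CPM. Marker sums are CPM of the library total, tested on log2(CPM + 1) by exact permutation, two-sided. Library totals of 11.6 to 50.1 M counts set the precision, and without molecular identifiers reads are not independent molecules. Replicate numbers 2, 4, 5 and 7 occur in both groups with no statement that they pair mice.

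Named genes were the 12 rising and 12 falling with the smallest p among called genes of at least 2-fold change, without overlap and at least 5 CPM, the 5 largest in each direction, up to 4 called members a list (2 more in the other direction), and genes with a called interaction. Predicted genes, pseudogenes, Rik clones and ribosomal protein genes were passed over. Members of lists named without a level, and Krt15, Bcl3, Tnfaip3 and the others given as ends of a range, were chosen after their values were seen. Members and lists were chosen with earlier results of these data known. Alternatives were DESeq2 1.42.0 size factors and Wald test, limma 3.58.1 voom, other filters, non-robust dispersion, covariates (sex, library total, mitochondrial percent, satellite-like CPM), the replicate number as a block, only the 10 libraries, and each library left out. Some members of lists are counted but not reported by name here.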

Additional observations from a re-analysis of the deposited data

Results flagged for a closer look

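Within groups of 5 mice, 256 sets of values were examined for 1 library far from the other 4, and 30 had one. Chance alone gives about 1 in 20 such sets, and sets that share a library or a pathway are not independent. Topical mouse 7 stood highest for wound, interferon and hypoxia genes: Krt6a (2147 CPM, next 483 CPM), Sprr2a3 (431 CPM, next 95.5 CPM), Ifi27l2a (50.5 CPM, next 14.3 CPM), Oas1g (17.7 CPM, next 3.54 CPM), Pgk1 (142 CPM, next 70.5 CPM) and Egln3 (72.2 CPM, next 25.2 CPM). Topical mouse 3 stood highest for late differentiation and related genes: Spink5 (78.8 CPM, next 46.9 CPM), Flg2 (2.59 CPM, next 0.784 CPM), Kprp (5.36 CPM, next 2.09 CPM), Ifitm6 (0.865 CPM, next 0.261 CPM) and Wfdc21 (0.980 CPM, next 0.231 CPM).

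Topical mouse 5 stood highest for Chil1 (17.7 CPM, next 9.52 CPM), Pkp2 (2.55 CPM, next 1.02 CPM) and Cldn5 (3.75 CPM, next 2.15 CPM), and for the sums of fibroblast genes (126 CPM, next 50.8 CPM) and adipocyte genes (2.92 CPM, next 0.689 CPM). Topical mouse 2 was highest for Laptm4b (45.6 CPM) and Nqo1 (7.64 CPM) and lowest for B4galnt2 (0.0783 CPM), and topical mouse 4 highest for Hba-a1 (1.46 CPM). Injected mouse 2 held 37287 CPM of satellite-like transcripts against 5.496 CPM in the next injected mouse. It was also highest for Cpe (36.7 CPM), Hspb1 (5866 CPM) and the mast cell sum (0.518 CPM), and lowest for Skint3 (19.3 CPM, next 43.0 CPM) and Mmp13 (0.0881 CPM). Injected mouse 7 was highest for Fzd7 (8.44 CPM) and the hair shaft sum (30.1 CPM), injected mouse 4 had the lowest mitochondrial share (2.45%), and injected mouse 6 had 0 CPM of Oas1g.

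The route effect differed between cKO and controls, by the interaction test of edgeR, for 11 genes that also differed between routes in cKO. The log2 difference (cKO minus controls) was 2.17 for D7Ertd443e, 2.14 for Cd82, 2.03 for Nkd2, 1.36 for Sptlc3, 1.30 for Atp2c2, 1.19 for Ifi30 and 1.02 for Glb1. It was -1.52 for Sulf2, -1.45 for Slc1a5, -1.40 for Mgmt and -1.16 for Dcxr. None of the interactions was called with satellite-like transcripts as a covariate or with the replicate number as a block.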

How the results depend on the processing

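The number of genes differing between routes in cKO was 1145, and over the alternatives it ran from 785 with only the 10 libraries fitted (747 shared with the 1145) to 1709 with the mitochondrial percent as a covariate. Leaving out 1 library gave 746 (without topical mouse 5) to 1218 (without injected mouse 4). A block for the replicate number left 937, with 847 shared, and 15 of 136 named genes lost their call. Same-numbered mice deviated from their group means with correlations of -0.12, 0.35, -0.38 and -0.23, so the numbers were not taken to pair mice. In controls, 2277 became 3493 with limma voom, 3496 with the mitochondrial covariate, 118 with the satellite-like covariate, and 1463 (without injected control 3) to 2524 (without injected control 1) when 1 library was left out. The 31 interactions became 321 with the DESeq2 Wald test, 204 with limma voom, 49 with genes of at least 5 CPM, 49 with sex, 364 with the mitochondrial covariate, and 0 with the replicate block (1632 at an unadjusted p under 0.05) or the satellite-like covariate (555). Leaving out 1 library gave 16 to 470 interactions. The cause of these moves was not tested. Of 136 named genes 93 kept their call throughout, 35 lost it in at least 1 alternative and 38 in at least 1 fit without a library, and none reversed. The sign of 16 of 59 list medians changed in some setting. The marker sums changed no call. Transcripts under about 3 reads a library, Cyp11b1 among them, were beyond what this depth can compare.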
